A study of Mus musculus with 37 samples.

Results

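Expression of 5 genes from a pair of imprinted clusters was followed in the tailbud of mouse embryos, namely Peg3, Usp29 and Zim1 on proximal chromosome 7 and Mest and Copg2 on chromosome 6. The genes were chosen by name as rows of the raw count table and are 5 of its 35542 genes, and all 5 passed the filter on low counts in every comparison. RNA-seq had been performed on 37 embryos of embryonic day 8 to 8.5, 1 library per embryo, to ask how removing maternal SMCHD1, an epigenetic silencer of the SMC protein family, alters gene expression in this tissue. Smchd1wt embryos (21) had the genotype Smchd1[fl/+], with a loxP-flanked maternal allele that was not deleted. Smchd1matΔ embryos (16) had the genotype Smchd1[del/+] and came from oocytes in which MMTV-Cre had removed Smchd1, so the oocyte supply and the embryo's maternal copy were both missing. All embryos were F1 offspring of C57BL/6 mothers and Castaneus fathers, and the labels name no treatment. There were 13 females and 8 males among the Smchd1wt and 11 females and 5 males among the Smchd1matΔ embryos, and all embryos of 6 somites were female. The numbers of Smchd1wt and Smchd1matΔ embryos were 4 and 4 at 6 somites, 4 and 3 at 7, 3 and 2 at 8, 3 and 2 at 9, 4 and 3 at 10, and 3 and 2 at 11 somites. The labels do not tie embryos to litters, so p-values measure the spread between these embryos.

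In genomic imprinting the gene copy from one parent is silenced by marks laid down in the germ line, so that RNA comes mainly from the copy of the other parent. Peg3, which encodes a zinc-finger protein, Usp29, which encodes a ubiquitin-specific peptidase, and Mest, which encodes a protein of the α/β-hydrolase fold and is abundant in embryonic mesoderm, are known as paternally expressed genes. Zim1, another zinc-finger gene, is known as maternally expressed, and Copg2 encodes a γ subunit of the COPI coat of transport vesicles. The values below are totals over both parental copies, since the counts do not separate alleles.

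The positions of the genes (GRCm38) bear on how their counts can be read. Peg3 (ENSMUSG00000002265) lies at chr7:6703892-6730431 on the minus strand and Usp29 (ENSMUSG00000051527) at chr7:6730578-6967219 on the plus strand, so that they start back to back with 146 bases between them. Zim1 (ENSMUSG00000002266), at chr7:6671269-6696450 on the minus strand, begins 7441 bases beyond the end of Peg3. Mest (ENSMUSG00000051855) lies at chr6:30723547-30748465 on the plus strand and Copg2 (ENSMUSG00000025607) at chr6:30747554-30896794 on the minus strand, and their 3′ ends overlap tail to tail over 912 bases. In the GENCODE M21 annotation all 912 bases are exonic in both genes.

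The region around the Peg3 and Usp29 start sites is shown because both genes begin in it and their counts moved together between embryos. The first sequence is the RefSeq start-site window of Peg3, chr7:6730370-6730669 (GRCm38.p6), read 5′ to 3′ on the minus strand, with the 163 bases between the annotated start sites of Peg3 and Usp29 in capitals. The second, shown because Zim1 moved most closely with Usp29 but has a start site of its own, is the window of Zim1, chr7:6696383-6696682, also on the minus strand, with the 50 bases from its start site onwards in capitals.
Peg3 and Usp29: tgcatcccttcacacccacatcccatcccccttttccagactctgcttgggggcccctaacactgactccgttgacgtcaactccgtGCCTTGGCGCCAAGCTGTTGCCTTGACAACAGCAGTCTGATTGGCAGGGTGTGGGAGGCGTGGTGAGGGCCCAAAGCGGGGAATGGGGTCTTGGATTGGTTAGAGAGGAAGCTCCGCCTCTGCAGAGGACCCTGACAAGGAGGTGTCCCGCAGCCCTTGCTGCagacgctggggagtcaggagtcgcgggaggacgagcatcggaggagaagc
Zim1: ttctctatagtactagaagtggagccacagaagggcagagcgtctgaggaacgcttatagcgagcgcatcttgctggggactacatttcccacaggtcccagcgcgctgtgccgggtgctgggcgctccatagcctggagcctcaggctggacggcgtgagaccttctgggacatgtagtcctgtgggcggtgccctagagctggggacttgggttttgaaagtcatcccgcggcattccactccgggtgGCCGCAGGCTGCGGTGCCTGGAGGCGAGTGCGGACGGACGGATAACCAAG
The RefSeq windows of Peg3 and Usp29 share 263 of their 300 bases. The shared region held CCAAT at 2 places (searched on both strands), both between the start sites, and at least 1 CCAAT was present in 37.4% of 32817 mouse start-site windows of this length. It also held 1 TGACGTCA, a sequence that reads the same on both strands and was present in 1.79% of windows. Neither sequence occurred in the windows of Zim1, Mest or Copg2. Both were picked after the Peg3 window had been read, so their presence is a description only.

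Library depth in M counts (mega, as in CPM) was 3.06 to 80.6 (median 11.96) in Smchd1wt and 0.916 to 30.2 (median 14.2) in Smchd1matΔ embryos. Smchd1 itself was at 149 ± 22.8 CPM (counts-per-million values after TMM normalisation; SD, n = 21) in Smchd1wt and 88.7 ± 13.3 CPM (SD, n = 16) in Smchd1matΔ embryos, lower as the labels imply (log2 fold change -0.74, SE 0.075, adjusted p = 1.45e-07, edgeR). Markers of tailbud progenitors (T, Nkx1-2, Sox2, Cdx2, Fgf8 and Wnt3a) were all detected, summing to 476 to 1169.6 CPM in Smchd1wt and 753 to 1068 CPM in Smchd1matΔ embryos. Markers of primitive red cells summed to between 9.50 and 4246 CPM, and those of visceral endoderm and yolk sac to between 6.08 and 2359 CPM, so the libraries varied in how much blood and yolk sac RNA they held. In such bulk samples, fewer cells of a type and less RNA per cell cannot be told apart.

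The 5 genes spanned a wide range of expression. Per length (RPKM, CPM per kilobase of exon), Mest was highest at 309 ± 52.6 RPKM (SD, n = 37), above 99.4% of the 15976 genes compared. Copg2 stood at 110.3 ± 15.5 RPKM and Peg3 at 52.8 ± 9.87 RPKM, above 97.7% and 94.0% of genes. Zim1 at 2.84 ± 0.917 RPKM and Usp29 at 0.967 ± 0.263 RPKM were low, above 40.1% and 23.4% of genes. Usp29 shares its start region with Peg3 but gave far less RNA per length. The shallowest library, Smchd1matΔ replicate 3 at 6 somites, held 583 Peg3 counts, 984 Mest counts and 558 Copg2 counts but only 21 Zim1 and 12 Usp29 counts, so counting error is largest for the latter pair.

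Peg3 ranged from 490 to 1003 CPM (median 738) in the 21 Smchd1wt embryos and from 398 to 933 CPM (median 656) in the 16 Smchd1matΔ embryos. Usp29 ranged from 12.7 to 33.1 CPM (median 18.04) in Smchd1wt and from 7.08 to 22.5 CPM (median 16.4) in Smchd1matΔ embryos. Zim1 ranged from 15.2 to 40.7 CPM (median 24.9) and from 8.29 to 33.1 CPM (median 22), respectively. For each of the 3 chromosome 7 genes the lowest embryo was Smchd1matΔ and the highest Smchd1wt, with broad overlap. On chromosome 6, Mest ranged from 941 to 1650.1 CPM (median 1307) in Smchd1wt and from 759 to 1537 CPM (median 1133) in Smchd1matΔ embryos. Copg2 ranged from 487 to 732 CPM (median 589.6) and from 393 to 644 CPM (median 555). Here too the groups overlapped over most of their range.

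**Figure D1:**
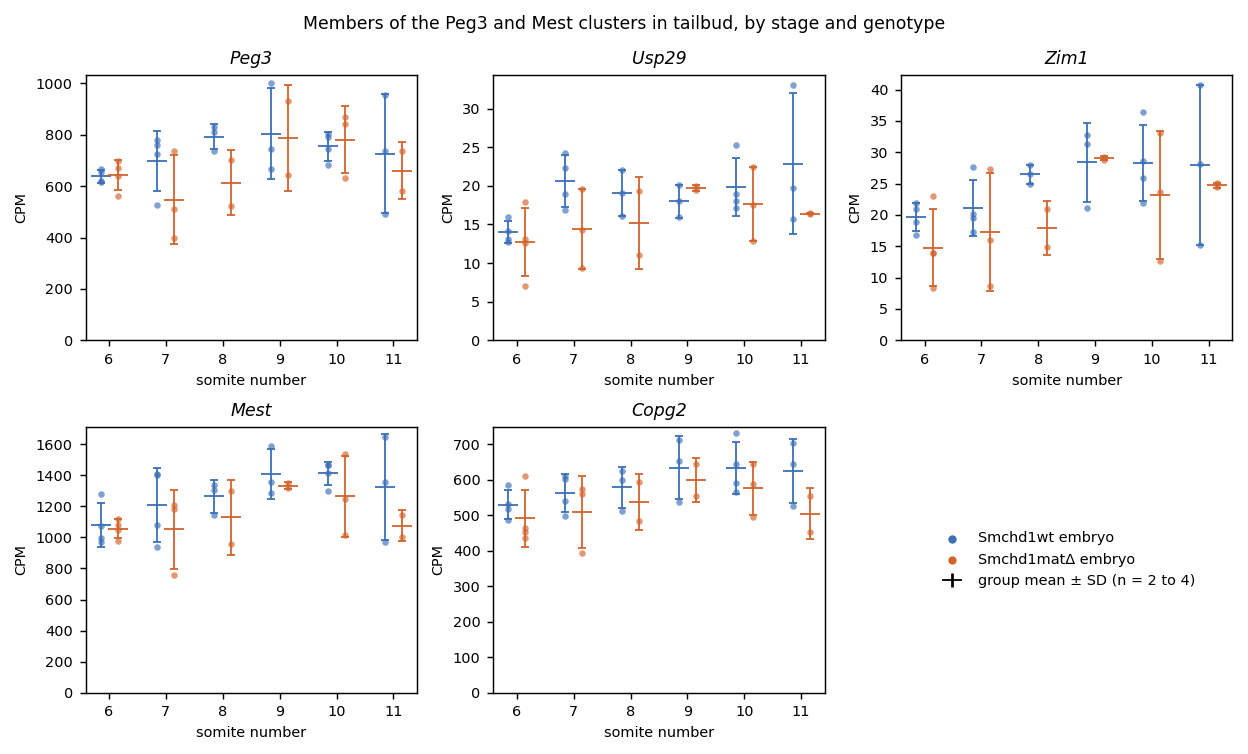
CPM of each gene (y axis, from 0) against somite number (x axis), with 1 point per embryo (Smchd1wt blue, Smchd1matΔ orange) and bars for the group mean ± SD of 2 to 4 embryos. The Smchd1matΔ mean lies below the Smchd1wt mean at 6 of 6 stages for Mest and Copg2, at 5 for Usp29 and Zim1 and at 4 for Peg3, and the points of the genotypes overlap at nearly all stages.

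To test whether loss of maternal SMCHD1 altered these genes, genotypes were first compared over all stages with edgeR's quasi-likelihood test, with somite number and sex in the model. None of the 5 genes passed an adjusted p-value of 0.05, a threshold that 0.0125% of the 15978 genes tested passed. All 5 estimates were negative, that is, lower in Smchd1matΔ embryos. Their median log2 fold change was -0.15, against -0.0023 over all genes. Without adjustment, 4 of the 5 (all but Peg3) had a p-value under 0.05, compared with 5.66% of all genes, and DESeq2 gave 0 genes past the adjusted threshold and the same count of 4 without adjustment. Because the 5 genes moved together between embryos (below), they do not count as 5 separate observations.

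The largest estimate was that of Zim1, whose log2 fold change was -0.29 (SE 0.13, adjusted p = 0.867), followed by Usp29 at -0.22 (SE 0.11, adjusted p = 0.867). For Mest the value was -0.15 (SE 0.069, adjusted p = 0.867) and for Copg2 -0.15 (SE 0.058, adjusted p = 0.867). Peg3 had the smallest, -0.12 (SE 0.081, adjusted p = 0.877). Among the 16 Smchd1matΔ embryos, 12 lay below the Smchd1wt mean of their own stage for Mest, 11 for Usp29, Zim1 and Copg2, and 9 for Peg3. An interval of 2 SE around the estimate ran from -0.55 to -0.04 for Zim1 and from -0.29 to -0.01 for Mest, so these data do not show that the genotypes are alike.

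**Figure D2:**
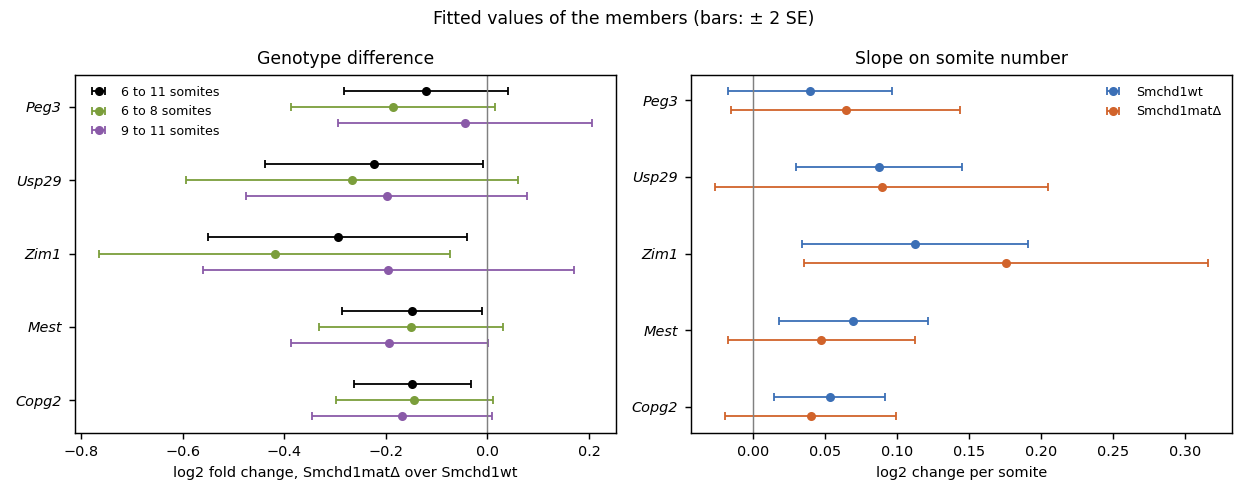
Fitted values with bars of ± 2 SE. Left, log2 fold change of Smchd1matΔ over Smchd1wt (x axis) for each gene in all stages, in 6 to 8 somites and in 9 to 11 somites, where all 15 estimates are below 0, although that of Peg3 at 9 to 11 somites turns to 0.013 with a replicate block. Right, log2 change per somite (x axis) in each genotype, where all 10 estimates are above 0; none passed the adjusted threshold of 0.05.

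The genotype difference was then examined in the windows the study used. At 6 to 8 somites none of the 5 genes passed the adjusted threshold, as 0.00639% of all genes did, 1 (Zim1) had an unadjusted p-value under 0.05, and DESeq2 gave the same counts. The median log2 fold change of the 5 was -0.19, against -0.0037 over all genes. Zim1 was at 22.1 ± 4.07 CPM (SD, n = 11) in Smchd1wt and 16.3 ± 6.38 CPM (SD, n = 9) in Smchd1matΔ embryos. Its log2 fold change in this window was -0.42 (SE 0.17, adjusted p = 0.568, edgeR). Tissue markers differed too, none past the adjusted threshold. All 5 endothelium estimates were negative (median -0.23, 2 at an unadjusted p-value under 0.05, edgeR). So were 4 of 6 lateral and intermediate mesoderm estimates (median -0.17, 2 at such a p-value). All 6 tailbud progenitor (median 0.145, 3 at such a p-value) and the 3 somite estimates (all 3 at such a p-value) were positive. The part of these tissues in the values of the 5 genes was not tested. At 9 to 11 somites 0 of 5 passed with edgeR or DESeq2, against 0.00635% of all genes. With either tool 0 had an unadjusted p-value under 0.05, against 1.88% of all genes with edgeR. The median of the 5 was -0.19 against 0.0064. Mest was at 1386 ± 187.5 CPM (SD, n = 10) in Smchd1wt and 1231 ± 191.5 CPM (SD, n = 7) in Smchd1matΔ embryos of this window, and the log2 fold change was -0.19 (SE 0.097, adjusted p = 0.9998, edgeR). Peg3 differed least there, at -0.04 (SE 0.12), and its sign turned with the replicate number as a block (0.013) and when any 1 of 4 embryos was left out (up to 0.037). The difference between the windows was itself tested, and 0 of 5 genes passed, with 0 at an unadjusted p-value under 0.05 and 0 of either kind with DESeq2. Of all genes, 0.0% passed and 3.55% had an unadjusted p-value under 0.05 with edgeR.

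Single stages hold 2 to 4 embryos a group. None of the 5 genes passed the adjusted threshold at 6, 7, 8, 9, 10 or 11 somites with edgeR or DESeq2, where edgeR called 0.0% of genes at each stage. At an unadjusted p-value under 0.05 edgeR gave 1 gene of the 5 (Zim1) at 8 somites and 0 at each other stage. DESeq2 gave 2 at 8 somites and 1 each at 7 and 11 somites. Of all genes, edgeR gave 5.54% at 6, 4.83% at 7, 2.81% at 8, 1.15% at 9, 0.560% at 10 and 8.67% at 11 somites. At 8 somites Peg3 was at 828, 811 and 738 CPM in the Smchd1wt embryos and at 703 and 524 CPM in the Smchd1matΔ embryos, a ratio of the means of 0.774. Zim1 at the same stage was at 24.9, 28.0 and 26.5 CPM against 20.99 and 14.8 CPM, a ratio of 0.676. For both genes each Smchd1matΔ embryo lay below each Smchd1wt embryo, as it did for 7.18% of all genes at 8 somites. Other differences went with genotype at this stage. The Smchd1wt embryos were 2 males and 1 female and both Smchd1matΔ embryos were female, and the fit of a single stage has no term for sex. All 6 primitive red cell markers had negative estimates (median -2.79, 5 at an unadjusted p-value under 0.05), while all 6 tailbud progenitor and all 5 presomitic mesoderm markers had positive ones (medians 0.45 and 0.56, 3 of each at such a p-value), and none passed the adjusted threshold with edgeR. Negative estimates were also found for all 5 endothelium markers (median -0.36, 1 at such a p-value) and all 5 visceral endoderm markers (median -0.85), none past the adjusted threshold. The part of sex and of these tissues in the 8-somite values was not tested. Such a separation was not found for any of the 5 genes at the other stages, where it held for 2.33% of genes at 6, 2.37% at 7, 6.25% at 9, 0.713% at 10 and 13.9% at 11 somites.

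Usp29 showed no such separation at any stage. At 7 somites it was at 20.6 ± 3.32 CPM (SD, n = 4) in Smchd1wt and 14.4 ± 5.15 CPM (SD, n = 3) in Smchd1matΔ embryos, the lowest ratio of the stages for this gene at 0.6995. At 9 somites the order was the other way, with 18.01 ± 2.12 CPM (SD, n = 3) and 19.7 ± 0.370 CPM (SD, n = 2). Zim1 differed most by mean at 8 somites, and at 6 somites it was at 19.7 ± 2.28 CPM (SD, n = 4) in Smchd1wt and 14.8 ± 6.09 CPM (SD, n = 4) in Smchd1matΔ embryos. For Mest the means at 11 somites were 1327 ± 341 CPM (SD, n = 3) and 1077 ± 100.5 CPM (SD, n = 2). Those for Copg2 were 624 ± 90.8 and 504 ± 72.1 CPM (SD, n = 3 and 2). In each of these cases the embryos of the genotypes overlapped. Tissue markers differed at 6, 7, 9 and 11 somites too, none past the adjusted threshold. At 6 somites the 5 primitive red cell markers tested had positive estimates (median 1.25, 2 at an unadjusted p-value under 0.05, edgeR). Of 6 lateral and intermediate mesoderm estimates 5 were negative (median -0.14, 1 at such a p-value). At 7 somites all 5 visceral endoderm (median -1.05, all 5 at an unadjusted p-value under 0.05, edgeR) and all 6 primitive red cell estimates (median -1.72) were negative. So were 5 of 6 lateral and intermediate mesoderm (median -0.32, 3 at such a p-value) and 4 of 5 endothelium estimates (median -0.23). All 6 tailbud progenitor estimates were positive (median 0.18, 3 at such a p-value). At 9 somites all 5 visceral endoderm estimates were positive (median 1.24). Of 5 presomitic mesoderm estimates 3 were negative (median -0.12), 2 at such a p-value. At 11 somites all 6 primitive red cell estimates were positive (median 1.78, all 6 at such a p-value) and all 5 endothelium estimates negative (median -0.14). The part of these tissues was not tested. The ratio of the means for Mest was between 0.811 (11 somites) and 0.977 (6 somites), and for Copg2 between 0.807 (11 somites) and 0.945 (9 somites). With the 12 groups ordered by mean CPM, all 11 neighbouring pairs differed by less than the larger SD of the pair for Peg3, Usp29, Mest and Copg2, and 10 of 11 for Zim1. For Peg3 the order ran from 548 ± 172.0 CPM (Smchd1matΔ, 7 somites, SD, n = 3) to 805 ± 176 CPM (Smchd1wt, 9 somites, SD, n = 3).

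Next, the change with stage was examined as the slope on somite number. In the 21 Smchd1wt embryos, estimates were positive for all 5 genes, with a median log2 change of 0.07 per somite against -0.0018 over all genes. None passed the adjusted threshold with edgeR, where 6.64% of 15148 genes did, and 4 of 5 had an unadjusted p-value under 0.05, against 21.4% of all genes. Zim1 had the steepest estimate at 0.11 per somite (SE 0.039, adjusted p = 0.0857), then Usp29 at 0.09 (SE 0.029, adjusted p = 0.0697). The estimates for Mest (0.07, SE 0.026, adjusted p = 0.110), Copg2 (0.05, SE 0.019, adjusted p = 0.0989) and Peg3 (0.04, SE 0.028, adjusted p = 0.453) were smaller. This count depended on the tool and on 1 embryo. DESeq2 called 2 of the 5, Zim1 (adjusted p = 0.0456) and Usp29 (adjusted p = 0.0489). Without Smchd1wt replicate 2 at 11 somites edgeR called 4, all but Peg3, with the slope of Zim1 at 0.15 (SE 0.033, adjusted p = 0.00869) and that of Mest at 0.09 (SE 0.023, adjusted p = 0.0162). Without Smchd1wt replicate 2 at 7 somites, or without replicate 1 at 9 somites, it called 1 (Usp29).

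That embryo was low for the whole set. At 11 somites the Smchd1wt embryos had 40.7, 15.2 and 28.2 CPM of Zim1, and 1650.1, 971 and 1361 CPM of Mest, with replicate 2 the lowest for both. Peg3 was at 954, 490 and 737 CPM in the same embryos and Usp29 at 33.1, 15.7 and 19.7 CPM. In the 16 Smchd1matΔ embryos 0 of 5 genes passed the adjusted threshold with edgeR or DESeq2, against 3.07% of all genes. With either tool 1 (Zim1) had an unadjusted p-value under 0.05, against 17.5% of all genes with edgeR. The slope of Zim1 was 0.18 per somite (SE 0.070, adjusted p = 0.193), and those of the other genes were between 0.04 and 0.09. The slopes were also compared between genotypes, and 0 of 5 differences passed or had an unadjusted p-value under 0.05 with either tool. Of all genes, 0.0% passed and 3.92% had an unadjusted p-value under 0.05 with edgeR. For sex, 0 of 5 genes passed with either tool, against 0.219% of all genes, and 1 (Usp29, log2 difference of males over females 0.26, SE 0.13, adjusted p = 1.0, edgeR) had an unadjusted p-value under 0.05. With the replicate number as a block that estimate was -0.038 (SE 0.22), so its direction is not settled.

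While genotype and stage gave no call, the genes varied together from embryo to embryo. After the mean of each of the 12 groups was subtracted from log2 CPM, 10 embryos had all 5 genes above their group mean and 9 had all 5 below it, leaving 18 mixed. In groups of 2 embryos the deviations mirror each other by construction, and in the 31 embryos of groups of 3 or 4 the counts were 8 above and 7 below. Copg2 is no separate observation here where its counts hold Mest reads (below). Smchd1matΔ replicate 1 at 7 somites was lowest, with the 5 genes between 0.35 and 0.85 below the mean of its group on the log2 scale. Smchd1wt replicate 1 at 11 somites was highest, at 0.18 to 0.65 above. Within groups, the SD of log2 CPM was 0.27 for Peg3 and 0.47 for Zim1, larger than in 90.8% and 95.6% of the 500 genes nearest to each in level. For Mest (0.23), Usp29 (0.36) and Copg2 (0.19) it was larger than in 82.8%, 79.6% and 69.6%.

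All 10 pairs among the 5 genes were positively correlated within groups over the 37 embryos, and all 10 passed an adjusted p-value of 0.05 in a two-sided permutation test within groups. Pearson's r was between 0.58 (Usp29 and Copg2) and 0.85 (Usp29 and Zim1), while the median r of each gene with all genes was between -0.07 and -0.01. These are single libraries, so depth and tissue makeup of a library enter both genes of a pair. In the 21 Smchd1wt embryos alone 7 of 10 pairs passed (permutation test, adjusted over the 10), and the 3 that did not were those of Copg2 with Peg3 (r = 0.58, adjusted p = 0.0613), Zim1 (r = 0.56, adjusted p = 0.0613) and Usp29 (r = 0.46, adjusted p = 0.127). For Usp29 and Zim1, r was 0.85 (p = 3e-05, adjusted p = 0.00015) and Spearman's rho 0.82 (p = 2e-05, adjusted p = 0.0001). Without the 2 embryos farthest from the median of Usp29, r was 0.82. Each was the other's closest gene of the 15977 others compared, although Usp29 is known as paternally and Zim1 as maternally expressed and they lie on opposite strands.

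Peg3 and Usp29, which begin in the region printed above, had r = 0.66 (p = 0.00114, adjusted p = 0.00163) and rho = 0.64 (p = 0.00113, adjusted p = 0.00226). Without the 2 embryos farthest from the median of Peg3, r was 0.58. Usp29 ranked as the 30th closest gene to Peg3, and Peg3 as the 11th closest to Usp29. Mest, on chromosome 6, was the 4th closest gene to Peg3 at r = 0.76 (p = 0.0002, adjusted p = 0.000667; rho = 0.62, p = 0.00204, adjusted p = 0.00291; r = 0.68 without 2 embryos). The difference between these r values was not tested. The 3 genes most like Peg3 were Igf2r (r = 0.86), the imprinted receptor that clears IGF2, Peg10 (r = 0.80), an imprinted gene derived from a retrotransposon, and Cgnl1 (r = 0.79), which encodes a junction protein.

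For Mest the closest genes were Copg2 (r = 0.82), Rgs5 (r = 0.81), a regulator of G-protein signalling, and Igf2 (r = 0.78), the imprinted growth factor gene. The genes most like Copg2 were Casd1 (r = 0.84), Mest (r = 0.82) and Smarca2 (r = 0.80). After each other, Usp29 was most like Tnfaip1 and Gm49394 (r = 0.72 and 0.71) and Zim1 most like Rbms2 and Man1a (r = 0.77 and 0.76). The closest genes thus included members of other imprinted clusters for Peg3 and Mest, and each of these correlations is over 37 embryos and is a description without a test.

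**Figure D3:**
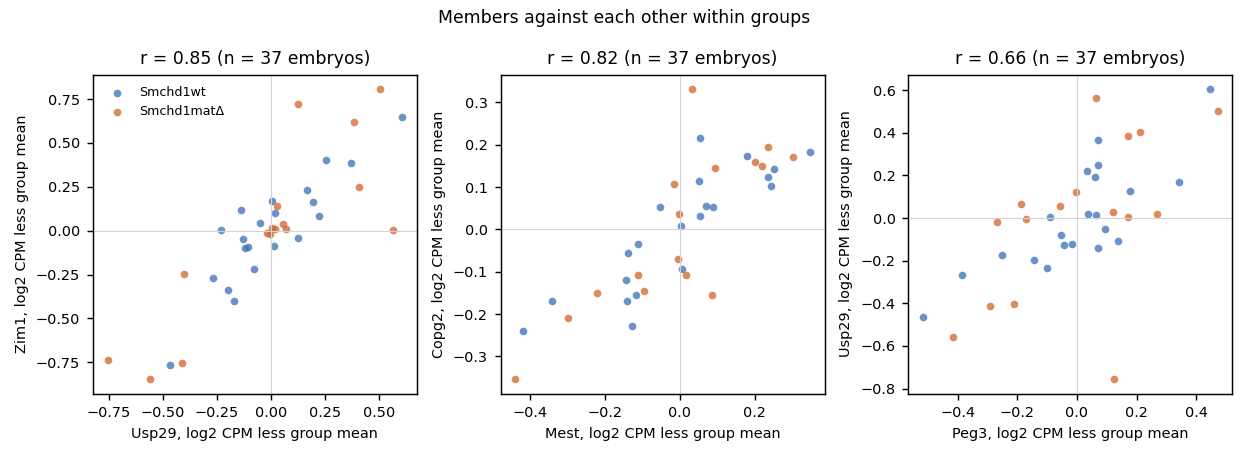
Log2 CPM less the mean of the embryo's group, 1 point per embryo (Smchd1wt blue, Smchd1matΔ orange), for Usp29 against Zim1, Mest against Copg2 and Peg3 against Usp29. Points of both genotypes run along the same diagonal, with r of 0.85, 0.82 and 0.66 over 37 embryos.

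In the permutation test of r, markers of 4 of 11 tissues were related to 1 or more of the 5 genes, and those of the other 7 to none. Against the summed endothelium markers (Kdr, Cdh5, Pecam1, Tek and Etv2), r within groups was 0.48 to 0.66 over the 5 genes, and 4 passed the adjusted threshold among 65 relations computed. For Mest it was 0.66 (p = 0.00309, adjusted p = 0.0387), with rho 0.64 (p = 0.00147, adjusted p = 0.0351) and r = 0.58 without the 2 embryos farthest from the median of the markers. Mest also followed the lateral and intermediate mesoderm markers and was the 1 gene of the 5 to pass there (r = 0.60, p = 0.0007, adjusted p = 0.0228, with rho = 0.69, p = 0.00021, adjusted p = 0.0137, and r = 0.73 without 2 embryos). The relation was not particular to Mest. Over the 5 genes r was 0.17 to 0.60, and 0.52 to 0.73 without the 2 embryos farthest from the median of these markers. Against the tailbud progenitor markers, r was -0.59 to -0.25, and 3 genes (Peg3, Usp29 and Zim1) passed on r. In the permutation test of rho Usp29 and Zim1 passed (adjusted p = 0.0351 for each), while Peg3 did not (adjusted p = 0.077). Against presomitic mesoderm markers r was -0.47 to -0.10, and 3 (Usp29, Zim1 and Mest) passed on r. None of these passed in the permutation test of rho (adjusted p = 0.0728, 0.0799 and 0.0539). No relation passed with primitive red cell (r = -0.30 to -0.06), visceral endoderm and yolk sac (r = -0.16 to 0.06), somite, neural tube, definitive endoderm, notochord or germ cell markers. Likewise, no relation with the total counts of the library (r = -0.27 to 0.03) or with its share of counts at the ribosomal RNA locus (r = -0.31 to 0.04) passed. The part of tissue makeup in the correlations among the 5 genes was not tested. In the genotype comparison over all stages 0 of 5 endothelium markers and 0 of 6 tailbud progenitor markers passed the adjusted threshold. All 5 endothelium estimates were negative (median -0.12) and all 6 tailbud progenitor estimates positive (median 0.11, 2 at an unadjusted p-value under 0.05). The 3 somite markers tested had larger positive estimates (Tcf15 1.07, Meox1 0.74 and Pax3 0.32), all 3 at an unadjusted p-value under 0.05. Of 3 notochord markers, with a median of 0.27, 2 (Noto and Chrd) were at such a p-value. Of 6 lateral and intermediate mesoderm markers 5 were negative (median -0.07), with Prrx1 at -0.30 (SE 0.10) the 1 at an unadjusted p-value under 0.05. None of these markers passed the adjusted threshold with edgeR, and their part in the negative estimates of the 5 genes was not tested either.

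**Figure D4:**
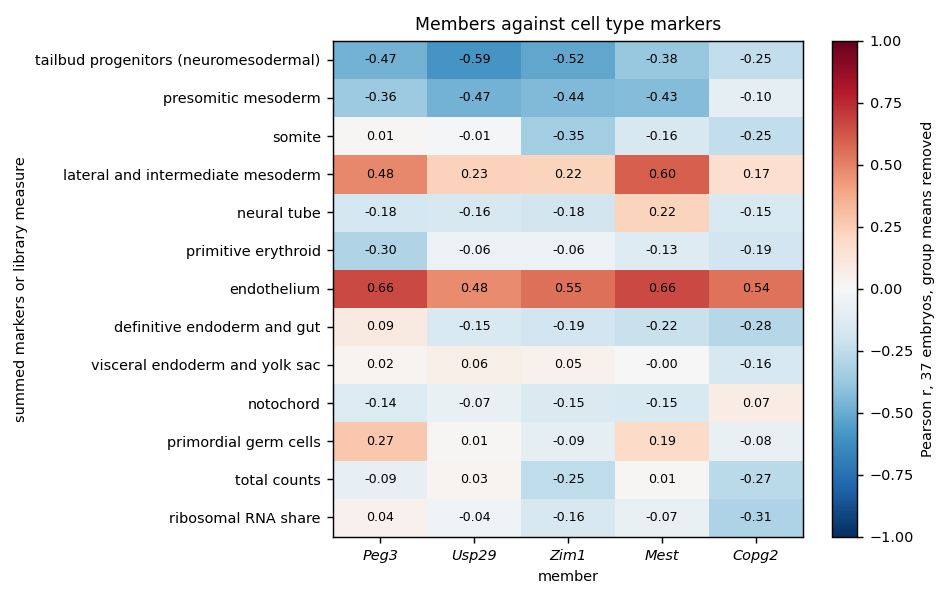
Pearson's r, within groups over 37 embryos, of each gene (columns) with the summed markers of each tissue, total counts and ribosomal RNA share (rows), on a scale from -1 (blue) to 1 (red). The row of endothelium markers is positive for all 5 genes (0.48 to 0.66) and that of tailbud progenitors negative (-0.59 to -0.25).

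The overlap of Mest and Copg2 was then considered, since it can place reads of one gene in the counts of the other. Over 173 pairs of genes that overlap on opposite strands, counts of the covered gene were 0.857 to 1.01 times (range of the medians per embryo) what reads of its partner would give if strand were ignored. The table thus behaved as if strand had been ignored in counting. The 912 shared bases are 23.1% of the Mest exon bases and 17.8% of those of Copg2. If Mest reads fall evenly on its exons, they could make up 42.7 to 55.6% (median 50.7%) of Copg2 counts in Smchd1wt and 40.8 to 59.2% (median 48.9%) in Smchd1matΔ embryos. The reverse share, Copg2 reads in Mest counts, is at most 10.1% with all annotated transcripts and 12.9% with protein-coding ones. The share in Copg2 depends on which Mest transcripts are present. Over all embryos its median was 49.1% with all annotated transcripts, 57.6% with protein-coding ones and 72.6% if all Mest RNA were the transcript Mest-202.

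**Figure D5:**
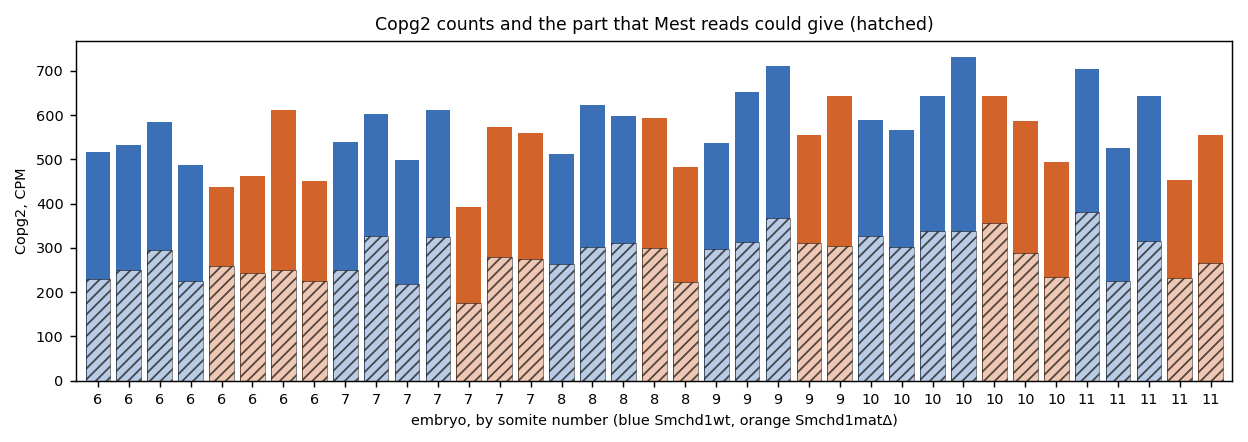
Copg2 CPM per embryo (bar height, from 0), ordered by somite number with Smchd1wt in blue and Smchd1matΔ in orange, and the part that Mest reads could give (hatched). The hatched part is 40.8 to 59.2% of each bar.

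With that part taken off, Copg2 was at 296 ± 36.0 CPM (SD, n = 21) in Smchd1wt and 267 ± 48.4 CPM (SD, n = 16) in Smchd1matΔ embryos, instead of 591 ± 71.8 and 531 ± 78.1 CPM. Its genotype estimate over all stages stayed at -0.15 (SE 0.068, adjusted p = 0.867, edgeR), and its slope in Smchd1wt embryos went from 0.05 to 0.04 per somite (SE 0.020, adjusted p = 0.288, edgeR). Most affected was its relation to Mest. As deposited, r of Mest and Copg2 was 0.82 (p = 1e-05, the smallest the permutations can give, adjusted p = 0.0001; rho = 0.82, p = 1e-05, adjusted p = 0.0001; r = 0.77 without the 2 embryos farthest from the median of Mest). Without the possible Mest reads it was 0.36 (p = 0.00276, adjusted p = 0.00403; rho = 0.47, p = 0.00264, adjusted p = 0.0044; r = 0.29 without 2 embryos). The relations of Copg2 with Peg3 (r = 0.33, adjusted p = 0.0699) and Usp29 (r = 0.34, adjusted p = 0.143) then no longer passed on r in the permutation test, while rho still did (0.42, adjusted p = 0.0444, and 0.38, adjusted p = 0.0414). How far the correlation of Mest and Copg2 is one of reads rather than of RNA cannot be told apart here, as the subtraction assumes even coverage and ties the corrected value to Mest.

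Copg2 was also set beside the genes of the other subunits of the COPI coat (coatomer). Its median of 110.5 RPKM (76.7 to 142.9 over 37 embryos) was above those of the other 8 subunits, which were between 1.66 (Copz2) and 47.7 RPKM (Copb2), and that of Copg1, the gene of the other γ subunit, was 14.5 RPKM. Without the possible Mest reads, and divided by the exon bases outside the overlap, the median of Copg2 was 68.2 RPKM (42.3 to 93.3), above the other medians. This value overstates the level, since reads of Copg2 itself inside the overlap stay in it while those bases are left out. If all Mest RNA were Mest-202 the median computed in the same way was 35.2 RPKM (12.8 to 57.6). That was below the medians of Copb2, Copz1 (45.1 RPKM) and Copb1 (39.1 RPKM), so the place of Copg2 among the subunits depends on the Mest transcripts assumed. None of the 9 coatomer genes passed the adjusted threshold in the genotype comparison over all stages, 1 (Copg2) had an unadjusted p-value under 0.05 (5.66% of all genes did), 7 estimates were negative and the median was -0.04. In the slope of Smchd1wt embryos none of the 9 passed with edgeR, 3 of 9 had an unadjusted p-value under 0.05 (Copa and Copb2 with negative estimates, Copg2 with a positive one), against 21.4% of all genes, and the 8 subunits other than Copg2 had estimates between -0.09 and -0.01 per somite. Within groups, r of Copg2 as deposited with the other 8 ran from -0.44 (Cope) to 0.41 (Arcn1). Without the possible Mest reads it ran from -0.74 (Cope) to 0.43 (Copb1), and that with Copz2 went from -0.10 to -0.47. These values are a description over 37 embryos without a test.

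Neighbours of Peg3 gave no call either. Of 6 Peg3 neighbours in the table (Zim2, Zim3, Aurkc, Zfp78, Zscan18 and Zfp329), 4 could be tested over all stages, with estimates of the genotype difference from -0.22 to -0.03 (median -0.09) and 0 past the adjusted threshold or at an unadjusted p-value under 0.05 with edgeR. The lowest of these estimates was that of Zim3 (SE 0.41). Zim3 shares 2582 exon bases, 68.8% of its own, with Usp29 on the other strand but had 191 counts in all 37 embryos together. With strand ignored in counting, these can hold Usp29 reads, so Zim3 may be no separate observation from Usp29. Their share was not tested. Zim2 was at 0 in 34 embryos. Near Mest, Klf14, known as maternally expressed, was at 3.64 ± 2.77 CPM (SD, n = 21) in Smchd1wt and 2.61 ± 1.30 CPM (SD, n = 16) in Smchd1matΔ embryos. Among imprinted genes of other clusters, 30 of 34 could be tested over all stages, and 1 passed the adjusted threshold, Peg12, which was higher in Smchd1matΔ embryos (log2 fold change 0.48, SE 0.073, adjusted p = 0.0011, edgeR). The median of the 30 was 0.01. Igf2, which was among the genes most like Mest, stood at a log2 value of -0.15 for the genotype difference (SE 0.068, adjusted p = 0.867, edgeR). Of the 2 imprinted genes most like Peg3, Igf2r stood at -0.017 (SE 0.081, adjusted p = 0.999, edgeR) and Peg10 at -0.15 (SE 0.10, adjusted p = 0.882, edgeR).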

How the data were processed

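Tailbud RNA of 37 embryos was sequenced as poly(A) libraries made with an unstranded or a stranded TruSeq kit, and which kit made which library is not given in the sources used here. The authors trimmed reads with Trim Galore 0.4.4 and mapped them to GRCm38.p6 with HISAT2 2.0.5, and quantified genes in SeqMonk. Raw counts per gene and embryo were read from the deposited table. Its columns were matched to embryos by title, and 0 per-sample columns were left unused. Of 35591 rows, 49 with a repeated identifier were dropped. A deposited table of log2 RPKM values of Hox genes holds no member and was not used, nor was a table of the authors' own fold changes and p-values.

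Counts were tested in R 4.3.3 with edgeR 4.0.16 (filterByExpr with a minimum count of 10, TMM, quasi-likelihood test, two-sided, Benjamini-Hochberg over all genes tested). All stages and windows were fitted with somite number and sex, single stages with genotype alone, and slopes with sex. DESeq2 1.42.0 served as an alternative. Log2 CPM used a prior count of 2. Correlations were tested with 100000 permutations within groups and adjusted over the 10 pairs, or over 65 relations with markers, depth and ribosomal RNA share. Exon lengths and overlaps came from GENCODE M21. The fits were tested on simulated data. The members, the gene lists and the tests were chosen with earlier results of these data known. The list of Mest neighbours is not reported here as a list. Named genes are the 5 members, the fixed lists, and the 3 genes with the largest r for each member. The marker correlations, the sequence motifs and the counts of Copg2 less possible Mest reads were added after seeing the data. No pair of libraries of 1 group agreed within sampling noise (chi-square per degree of freedom 5.12 to 72.3 over 42 pairs). Intervals and counts cover no bias of PCR, since reads carry no molecular identifiers.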

Additional observations from a re-analysis of the deposited data

Results flagged for a closer look

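Copg2 was at 611 CPM in Smchd1matΔ replicate 3 at 6 somites, far from the 437 to 463 CPM of the other 3 embryos of its group (gap over range 0.851, above the critical value of 0.829 for 4 samples). Of 20 groups of 4 embryos examined over the 5 genes it was the 1 with such a gap, and chance gives one in about 1 in 20 groups. The embryo has the shallowest library, with 558 Copg2 counts. Without it, 0 of the 5 genes passed at 6 somites, as with it.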

How the results depend on the processing

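In the comparisons of genotype, windows, single stages, slopes and sex, the number of the 5 genes called was 0 with edgeR and remained 0 under every alternative run (RLE size factors, no filter, DESeq2, no sex covariate, females alone, the replicate block, the 12-group fit for single stages, leaving out 2 Smchd1matΔ libraries of 6 somites with many ribosomal RNA counts, and, added after seeing the data, Copg2 less the possible Mest reads, each where it applied), except for the slope in Smchd1wt embryos. There DESeq2 called 2, and leaving out 1 embryo at a time gave 0 to 4. In all other such comparisons leaving out embryos gave 0 to 0. The labels number replicates alike across groups, but same-numbered embryos of a stage did not deviate together (r from -0.29 to 0.58 over 16 pairs, above 0.1 in 4), so the numbers are not taken to pair embryos. Under the replicate block 0 genes were called in every comparison, and the estimates of Peg3 at 9 to 11 somites (0.013) and of Usp29 (-0.038) and Zim1 (-0.13) for sex changed sign; the cause was not tested. Leaving out 1 embryo also turned the sign of Peg3 at 9 to 11 somites (-0.11 to 0.037) and of Mest for sex (-0.073 to 0.021). The other estimates for genotype over all stages and both windows, for the slope within each genotype and for sex kept their sign under these alternatives; single stages, the difference between windows and that between slopes were followed by their counts alone. Over these leave-outs the number of pairs of genes past the threshold was 10 to 10, and over the other alternatives 7 (Smchd1wt embryos alone) to 10. The median share of Copg2 counts that Mest reads could give moved from 49.1% to 57.6% with protein-coding exons and to 72.6% with Mest-202 alone, since fewer Mest exon bases lie outside the overlap. Depth limits Usp29 and Zim1 most, with 12 and 21 counts in the shallowest library.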
